A study of Mus musculus with 18 samples.

Results

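The Bcl2 family decides whether a stressed cell keeps intact mitochondria, and 10 of its genes were followed here across 18 RNA-seq libraries from mouse myeloid progenitors. They were taken from a table of 22787 genes by symbol, and all 10 were found and were high enough to be tested in every comparison. They were the antiapoptotic genes Bcl2, Bcl2l1 (encoding BCL-XL) and Mcl1, the effectors Bax and Bak1, and the BH3-only genes Bcl2l11 (BIM), Bbc3 (PUMA), Pmaip1 (NOXA), Bid and Bad.

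As background, BAX and BAK1 form pores in the outer mitochondrial membrane, which releases cytochrome c and starts the caspase cascade. The antiapoptotic proteins hold the effectors in check, and BH3-only proteins, induced or activated by stress, bind the antiapoptotic proteins or activate the effectors directly. In the myeloid lineage MCL1 is known as the protein that progenitors and neutrophils depend on most, while BCL2 is known to fall as granulocytes mature.

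Libraries were made with a low-input SmartSeq2 protocol in 7 groups. In 4 groups, 10000 cells per library, granulocyte-monocyte progenitors (GMPs), were sorted from bone marrow by Kit, Fc gamma receptor and low CD34 staining: Raptor KO and its Raptor fl/fl controls, and Tsc2 KO and its Tsc2 fl/fl controls, with 3 libraries in each. The controls carry the same loxP-flanked allele as their knockouts. Raptor is the substrate-recruiting scaffold of mTORC1, a growth-controlling kinase complex, and Tsc2 holds mTORC1 in check, so the 2 deletions act on it from opposite sides. The other 3 groups, with 2 libraries each, were DR-ER-Hoxb8 cells, a myeloid progenitor line immortalized with an estrogen-dependent Hoxb8 and differentiated for 3 days without estradiol in rapamycin (100 nM, an mTORC1 inhibitor), in SL0101-01 (10 nM, an inhibitor of the RSK kinases) or in DMSO. Groups follow the sample titles; the genotype field for Tsc2 libraries has Raptor in it instead. Neither the Cre driver nor the age of the mice is given in the sources used here. Labels did not say whether replicates were separate mice or cultures, so p-values measure the spread between these libraries.

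Values are the authors' normalized signal per gene, in which 1 sequenced fragment was worth 0.663 to 1.12 units. Libraries held 2477381 to 3524325 fragments in GMPs and 2313885 to 3296900 in Hoxb8 cells. The targeted gene was lower in Tsc2 KO, where Tsc2 averaged 95.1 ± 10.8, against 248 ± 18.0 in Tsc2 fl/fl (n = 3 libraries each, ± SD). This was a log2 fold change of -1.38 with a limma adjusted p of 1.7e-04. Rptor, which encodes Raptor, averaged 63.3 ± 5.61 in Raptor KO, against 84.5 ± 5.11 in Raptor fl/fl (SD, n = 3 each). The libraries did not overlap, but the difference did not pass (log2 fold change -0.41, limma adjusted p = 0.377). Tsc2 KO replicate 1 and Tsc2 fl/fl replicate 2 stood apart from the other libraries of their groups, and Y-linked transcripts were present in replicate 2 of both Tsc2 groups (317.7 in KO and 384.9 in fl/fl) and at 0.8 or less in the other GMP libraries. All 9 GMP markers, Mpo and Elane among them, were detected in every group, which does not measure the share of GMPs. In Tsc2 KO replicates 2 and 3 the summed signal of 12 erythroid markers (26027 and 23510) was above that of the GMP markers (8842 and 13230). In the remaining GMP libraries the GMP sum was the higher, as in Tsc2 KO replicate 1 (41191, against 13130).

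Across the 12 GMP libraries the family genes differed widely in level. For a rough comparison between genes, levels were divided by the length of all annotated protein-coding exons. Which isoforms were expressed was not tested. On this scale the effector Bax was the highest of the 10 in each of the 4 GMP groups. It was at 139 ± 15.7 per kb in Raptor KO, 206 ± 21.2 in Raptor fl/fl, 320 ± 59.8 in Tsc2 KO and 178 ± 13.0 in Tsc2 fl/fl (SD, n = 3 each). The order below it was Bid and then Mcl1 in all 4 groups, and their libraries overlapped in every group except Tsc2 KO. The least abundant was Bbc3 in Raptor KO (2.33 ± 0.338 per kb) and in Raptor fl/fl (3.04 ± 2.85), Bcl2 in Tsc2 KO (4.63 ± 2.59) and Bcl2l11 in Tsc2 fl/fl (4.57 ± 1.69). Counted from the top, Bcl2 per kb had rank 6 in Raptor KO, 8 in Raptor fl/fl, 10 in Tsc2 KO and 7 in Tsc2 fl/fl. Its libraries in Tsc2 KO overlapped those of the next gene up, Bcl2l1, at 7.65 ± 1.46 per kb.

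**Figure D1:**
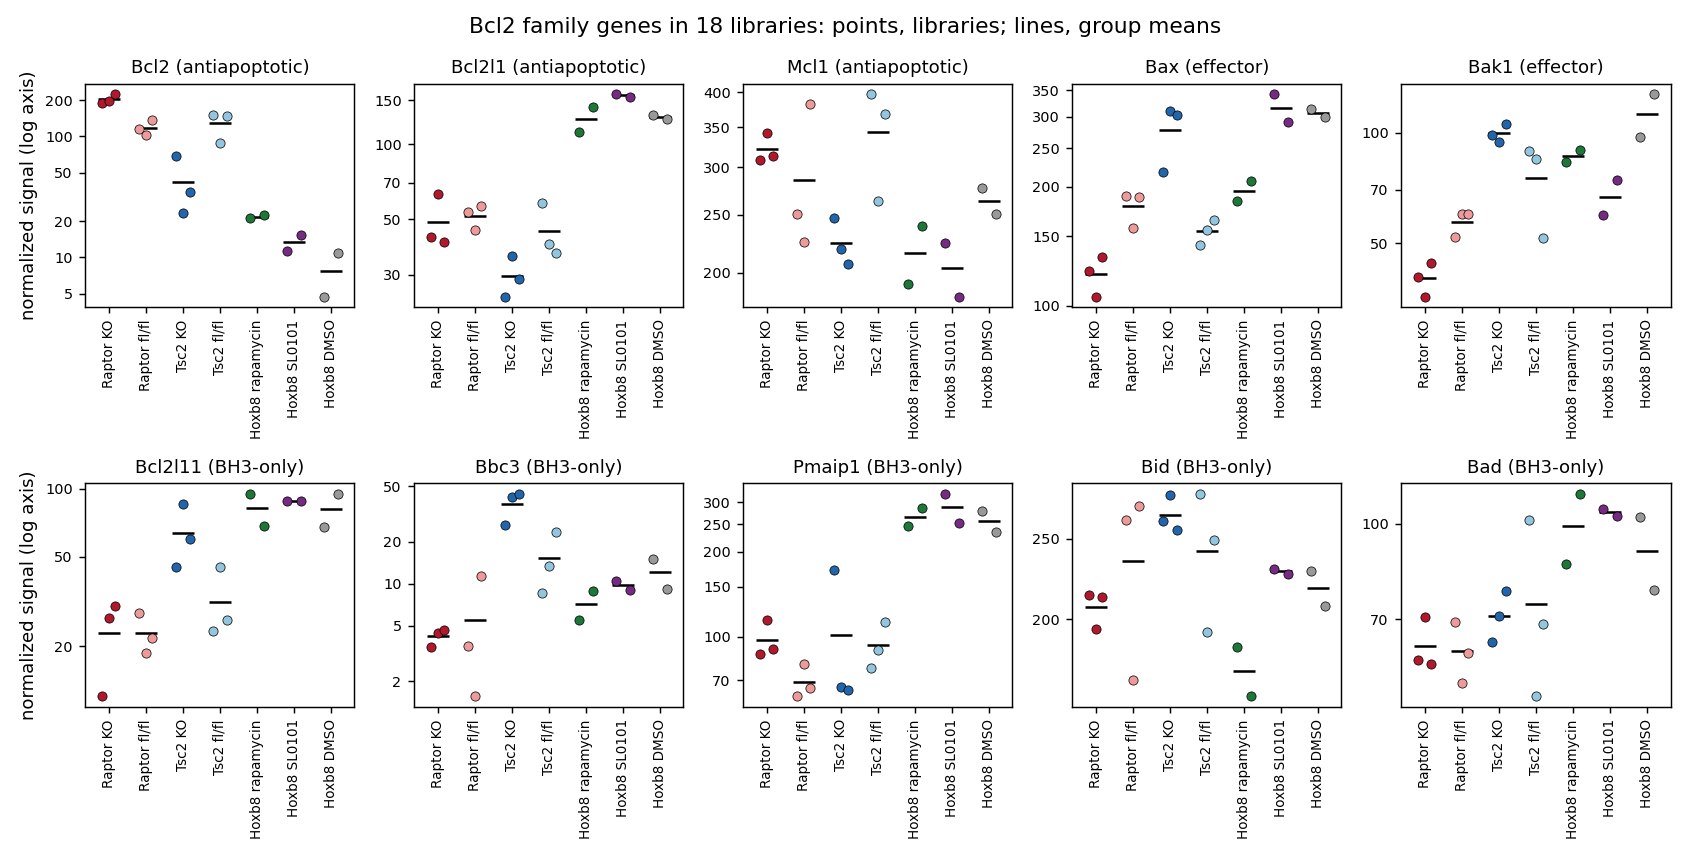
Normalized signal (log axis) of the 10 Bcl2 family genes in each of 18 libraries (points), by group, with the group mean (line); each panel has its own axis. Bcl2 lies between 187.5 and 225.5 in Raptor KO and between 23.4 and 68.9 in Tsc2 KO, with both fl/fl groups in between, while Bax has the opposite order.

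The first comparison asked what loss of Tsc2 did to the family in sorted progenitors. Bcl2 fell furthest of the 10 genes, Mcl1 fell less, and the effector Bax rose. The BH3-only genes Bcl2l11 and Bbc3 were higher in every Tsc2 KO library than in any Tsc2 fl/fl library but did not pass the test. Of the 10 genes 3 passed, against 12.4% of the 13237 genes tested.

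Bcl2, the founding survival gene, was at 68.9, 23.4 and 34.8 in Tsc2 KO, against 151.7, 88.0 and 146.7 in Tsc2 fl/fl. The groups did not overlap, and the closest libraries were the 2 that stood apart, KO replicate 1 and fl/fl replicate 2. The fitted level was 3.20-fold lower in Tsc2 KO (log2 fold change -1.68, SE 0.30, 95% interval -2.32 to -1.04, limma adjusted p = 0.00238). Bcl2 kept this call in every alternative tried, with log2 fold changes of -2.09 to -1.33 when 1 library was left out. Without both libraries that stood apart, the log2 fold change was -2.35. Leaving out the closest pair could only widen the difference, so this is no separate support. Over all genes 3183 then passed, against 1638 with all libraries.

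Mcl1, which encodes a short-lived survival protein, was at 246.6, 219.4 and 207.4 in Tsc2 KO, against 398.0, 264.0 and 368.7 in Tsc2 fl/fl. All KO libraries were below all fl/fl libraries, the nearest pair being KO replicate 1 and fl/fl replicate 2 again. The difference was 1.51-fold (log2 fold change -0.59, SE 0.19, limma adjusted p = 0.0438). Mcl1 no longer passed once KO replicate 2 (limma adjusted p = 0.129), KO replicate 3 (0.162), fl/fl replicate 1 (0.188) or fl/fl replicate 3 (0.141) was removed. Bcl2l1, the third survival gene, was at 24.5, 35.8 and 28.9 in Tsc2 KO, against 58.1, 39.8 and 36.7 in Tsc2 fl/fl. Its libraries were also separated, by a narrow margin, and it did not pass (log2 fold change -0.56, 95% interval -1.17 to 0.04, limma adjusted p = 0.221).

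Bax, an effector that sits in the cytosol until activated, was at 217.4, 310.9 and 303.0 in Tsc2 KO, against 142.2, 155.7 and 164.6 in Tsc2 fl/fl. Every KO library was above every fl/fl library. The rise was 1.77-fold (log2 fold change 0.83, SE 0.17, 95% interval 0.46 to 1.19, limma adjusted p = 0.00527), and the call was kept in every alternative tried. Bak1, the effector that resides on mitochondria, was at 98.8, 94.2 and 105.9 in Tsc2 KO, against 89.3, 84.6 and 51.7 in Tsc2 fl/fl. The KO libraries were all higher, by little over the nearest control, and Bak1 did not pass (log2 fold change 0.44, limma adjusted p = 0.259).

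Among the BH3-only genes, Bcl2l11, whose product binds all the main survival proteins, was at 45.1, 86.0 and 60.0 in Tsc2 KO, against 23.4, 44.8 and 26.3 in Tsc2 fl/fl. The groups were barely separated, at KO replicate 1 and fl/fl replicate 2. The fitted difference was 2.00-fold (log2 fold change 1.00, 95% interval 0.19 to 1.81, limma adjusted p = 0.097). It passed without those 2 libraries (limma adjusted p = 0.0143), where 3183 of all genes passed against 1638 with all libraries. As the closest pair for Bcl2l11, their removal could only widen the difference. Bbc3, a p53 target whose product PUMA also binds all the main survival proteins, was at 26.5, 42.0 and 44.4 in Tsc2 KO, against 8.67, 13.5 and 23.5 in Tsc2 fl/fl. All KO libraries were higher, on 40 to 61 fragments in KO and 10 to 25 in fl/fl, and Bbc3 did not pass (log2 fold change 1.32, 95% interval 0.15 to 2.49, limma adjusted p = 0.13).

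Pmaip1, the p53 target whose product NOXA binds mainly MCL1, was at 172.4, 66.0 and 64.4 in Tsc2 KO, against 77.2, 89.7 and 112.9 in Tsc2 fl/fl. KO replicate 1 was the highest of the 6 and the other KO libraries the lowest, so the groups overlapped (log2 fold change -0.03, limma adjusted p = 0.97). Bid, which links death receptors to mitochondria after cleavage by caspase-8, ranged from 256.3 to 282.7 in Tsc2 KO and from 192.9 to 283.5 in Tsc2 fl/fl. Bad, whose product is held inactive by growth-factor-dependent phosphorylation, ranged from 64.3 to 77.8 in Tsc2 KO and from 52.5 to 101.4 in Tsc2 fl/fl. For both, the 95% interval of the log2 fold change spanned 0, from -0.22 to 0.54 for Bid and from -0.54 to 0.51 for Bad.

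In all, 7 of the 10 genes had no overlap between Tsc2 KO and Tsc2 fl/fl libraries, a pattern found in 27.8% of the genes tested. The median absolute log2 fold change was 0.58 for the 10 genes and 0.38 for all genes tested, and the signed medians were 0.07 and -0.02.

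Cell composition markers moved in the same libraries. Of 9 GMP markers 3 were lower in Tsc2 KO, and their summed signal ran from 8842 to 41191 in Tsc2 KO, against 37528 to 83785 in Tsc2 fl/fl. Of 12 erythroid markers 5 were higher, with sums of 13130 to 26027 in Tsc2 KO, against 3366 to 11019 in Tsc2 fl/fl. Of 8 macrophage markers tested 6 were higher (sums of 2012 to 2573 in Tsc2 KO, against 599 to 706 in Tsc2 fl/fl). The macrophage sums were mostly Ctsb, which averaged 1556 in Tsc2 KO, against 590.6 in Tsc2 fl/fl. Of 10 B lymphoid markers 7 were lower (21 to 76, against 339 to 578), with Pax5 at 0 in all Tsc2 KO libraries. Of 6 megakaryocyte markers 4 were lower (159 to 179 in Tsc2 KO, against 375 to 710 in Tsc2 fl/fl), and of 7 T and NK markers tested 3 were lower. The T and NK sums (219 to 794, against 849 to 1295) were mostly Nkg7, which did not pass (limma adjusted p = 0.0501). Of 6 basophil and mast cell markers 1 was higher (3329 to 8180 in Tsc2 KO, against 1432 to 2671 in Tsc2 fl/fl), while neutrophil and eosinophil sums overlapped. The libraries that stood apart, KO replicate 1 and fl/fl replicate 2, were near each other in GMP sums (41191 and 37528) and erythroid sums (13130 and 11019). The same 2 were far apart in macrophage (2012 and 629), B lymphoid (76 and 578), megakaryocyte (179 and 710), basophil and mast cell (8180 and 1432) and neutrophil sums (3120 and 379). There Bcl2 was 68.9 and 88.0, Mcl1 246.6 and 264.0 and Bax 217.4 and 155.7. The part of composition in the Bcl2, Mcl1 and Bax differences was not tested. In bulk RNA, fewer cells of a type and less RNA per cell cannot be told apart.

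The second comparison asked the same of Raptor, and none of the 10 genes passed the limma test, against 3.94% of the 13237 genes tested. At an unadjusted p under 0.05 there were 2, Bcl2 and Bax, and limma with voom weights also called none. The libraries of 4 genes did not overlap between the groups, Bcl2 and Pmaip1 being higher and Bax and Bak1 lower in Raptor KO, and 26.4% of all genes tested had no overlap.

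Bcl2 was at 187.5, 196.2 and 225.5 in Raptor KO, against 114.7, 102.8 and 136.3 in Raptor fl/fl. The Raptor KO libraries were the 3 highest of all 18. The fitted difference was 1.72-fold (log2 fold change 0.78, 95% interval 0.14 to 1.43, limma adjusted p = 0.156). Bax was at 122.4, 105.5 and 132.5 in Raptor KO, against 189.8, 157.3 and 188.3 in Raptor fl/fl. The Raptor KO libraries were the 3 lowest of the 18, and the fitted level was 1.48-fold lower (log2 fold change -0.57, 95% interval -0.93 to -0.20, limma adjusted p = 0.0719). When the fit held the Raptor groups alone, both passed, with limma adjusted p = 0.00507 for Bcl2 and 0.0384 for Bax. Calls over all genes also grew in that fit, to 1249 against 522. The fit of all 4 GMP groups shares 1 estimate of the spread with the Tsc2 groups.

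Bak1 was at 40.3, 35.7 and 44.2 in Raptor KO, against 51.9, 59.9 and 60.0 in Raptor fl/fl. These were the lowest Bak1 levels of any group (log2 fold change -0.51, limma adjusted p = 0.264). Pmaip1 was at 87.0, 114.5 and 90.2 in Raptor KO, against 61.3, 80.2 and 65.7 in Raptor fl/fl, a separation of a few units (log2 fold change 0.49, limma adjusted p = 0.415). Mcl1 was at 308.5, 341.9 and 313.8 in Raptor KO, against 250.4, 225.0 and 382.2 in Raptor fl/fl, where replicate 3 was above every KO library (log2 fold change 0.21, 95% interval -0.19 to 0.60). Bcl2l1, Bcl2l11, Bbc3, Bid and Bad overlapped between the groups, with log2 fold changes of -0.15 to 0.03. The interval was widest for Bbc3, from -1.19 to 1.16, on 5 to 6 fragments per library in Raptor KO and 2 to 14 in Raptor fl/fl.

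The median absolute log2 fold change was 0.18 for the 10 genes and 0.32 for all genes tested. Markers moved here too. Of 10 B lymphoid markers 7 were lower (sums of 143 to 185 in Raptor KO, against 840 to 1220 in Raptor fl/fl), and 4 of 12 erythroid markers were lower (2134 to 2703, against 4298 to 4799). Of 8 macrophage markers tested 3 were higher (1290 to 2256 in Raptor KO, against 824 to 901 in Raptor fl/fl). The macrophage sums were mostly Ctsb, which averaged 1036 in Raptor KO, against 711.8 in Raptor fl/fl. GMP markers summed to 65129 to 67970 in Raptor KO, against 71854 to 82851 in Raptor fl/fl, with Kit as the single one of 9 that passed and higher in the KO. Of 6 megakaryocyte markers 3 were lower (395 to 435 in Raptor KO, against 1015 to 1242 in Raptor fl/fl). Of 9 mature neutrophil markers 2 were lower (118 to 276, against 632 to 1802), and of 7 T and NK markers tested 1 was lower, Cd2. The T and NK sums (1074 to 1198, against 1364 to 1457) were mostly Nkg7, which did not pass (limma adjusted p = 0.809). No basophil and mast cell or eosinophil marker passed the limma test, but their sums did not overlap, at 9257 to 11332 in Raptor KO, against 3519 to 7380 in Raptor fl/fl, and at 5299 to 6913 in Raptor KO, against 1734 to 3792 in Raptor fl/fl. Their part in the Bcl2 and Bax values was not tested.

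**Figure D2:**
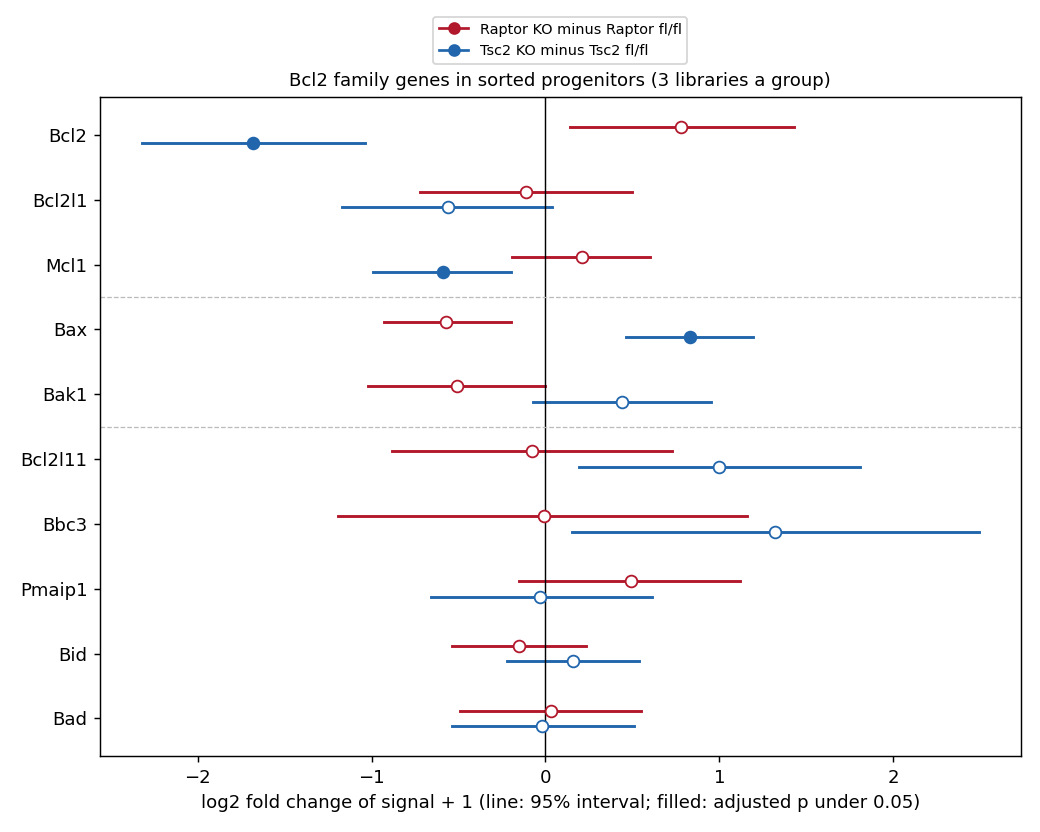
Log2 fold change of signal + 1 (horizontal axis) of each Bcl2 family gene in Raptor KO minus Raptor fl/fl and in Tsc2 KO minus Tsc2 fl/fl, with 95% intervals; filled points have limma adjusted p under 0.05 and dashed lines part survival, effector and BH3-only genes. Bcl2 (0.78 and -1.68) and Bax (-0.57 and 0.83) lie on opposite sides of 0 in the 2 knockouts.

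Whether the 2 deletions had different effects was tested as the difference of their log2 fold changes. It passed for 2 of the 10 genes, against 12.4% of the 13237 genes tested. For Bcl2 the Raptor effect exceeded the Tsc2 effect by 2.46 (SE 0.43, 95% interval 1.56 to 3.37, limma adjusted p = 0.0025), and for Bax the difference was -1.39 (SE 0.25, 95% interval -1.91 to -0.88, limma adjusted p = 0.00224). Both calls held in every alternative tried, and in each knockout the libraries did not overlap those of its own controls. Of the other survival and effector genes, Mcl1 was at 0.80 (limma adjusted p = 0.0537), Bak1 at -0.95 (0.0785) and Bcl2l1 at 0.45 (0.509). Mcl1 passed when either Tsc2 KO replicate 1 (adjusted p = 0.0268), Tsc2 fl/fl replicate 2 (0.0139) or Raptor fl/fl replicate 3 (0.0163) was left out of the limma fit. Without both libraries that stood apart, 5 of the 10 passed, adding Mcl1, Bcl2l11 and Pmaip1, while calls over all genes also grew, to 3088 against 1646 with all libraries. The differences for Bcl2l11 (-1.07, 95% interval -2.22 to 0.07) and Bbc3 (-1.34, 95% interval -2.99 to 0.32) had intervals that reached past 0.

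The ratio of Bcl2 to Bax signal within each library, compared between libraries and not as levels of the 2 genes, put the same values on 1 scale. It was 1.53 to 1.86 in Raptor KO, against 0.605 to 0.724 in Raptor fl/fl, and 0.0752 to 0.317 in Tsc2 KO, against 0.565 to 1.07 in Tsc2 fl/fl. On the log2 scale the mean was 0.76 ± 0.14 in Raptor KO and -0.60 ± 0.13 in Raptor fl/fl, and -2.84 ± 1.07 in Tsc2 KO and -0.30 ± 0.47 in Tsc2 fl/fl (SD, n = 3 each). No library of a knockout overlapped its controls, and the lowest ratios in each Tsc2 group belonged to replicate 2. The ratio is given without a test, since both genes were already tested.

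**Figure D3:**
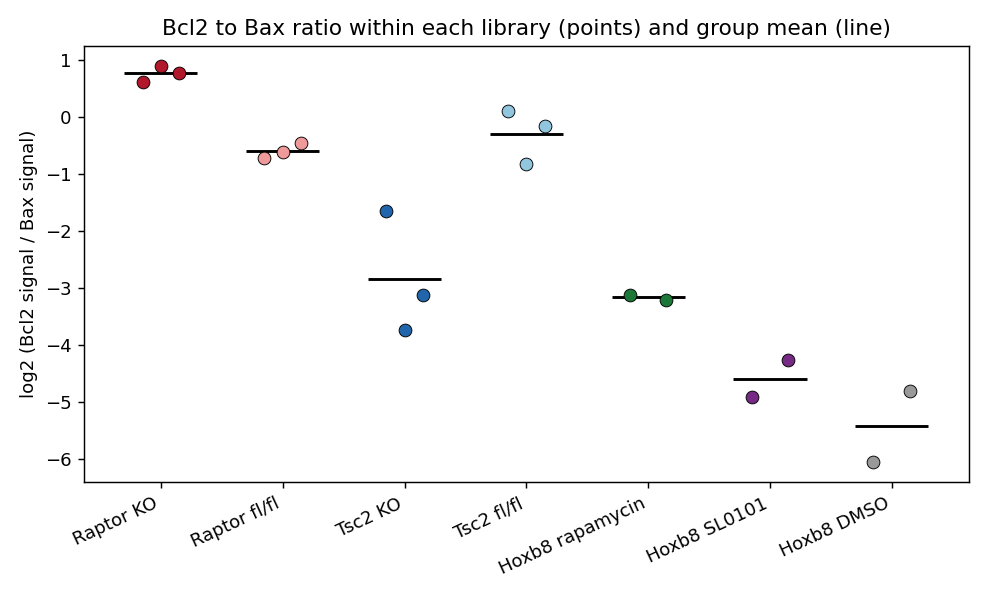
Log2 ratio of Bcl2 signal to Bax signal in each of 18 libraries (points) with the group mean (line), by group. Raptor KO libraries lie at 0.62 or above, Tsc2 KO libraries at -1.66 or below and all Hoxb8 libraries at -3.13 or below.

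Because Bcl2 and Bax were the genes whose difference between the deletions passed, their promoters are shown, each 300 bases long from 250 bases before the RefSeq transcription start to 50 after it, on GRCm38.p6, 5′ to 3′ on the gene's minus strand. Capitals mark TGACGT, the core of a CREB/ATF element, in Bcl2 and CACGTG, an E-box that MYC and TFEB/TFE3 factors can bind, in Bax. The Bcl2 window is chr1:106714241-106714540 and the Bax window is chr7:45466849-45467148.

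Bcl2: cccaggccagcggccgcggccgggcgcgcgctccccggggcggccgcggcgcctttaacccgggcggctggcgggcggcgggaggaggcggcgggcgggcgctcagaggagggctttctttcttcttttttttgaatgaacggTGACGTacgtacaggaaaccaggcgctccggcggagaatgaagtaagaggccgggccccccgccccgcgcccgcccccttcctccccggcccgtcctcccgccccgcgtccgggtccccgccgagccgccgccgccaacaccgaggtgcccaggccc
Bax: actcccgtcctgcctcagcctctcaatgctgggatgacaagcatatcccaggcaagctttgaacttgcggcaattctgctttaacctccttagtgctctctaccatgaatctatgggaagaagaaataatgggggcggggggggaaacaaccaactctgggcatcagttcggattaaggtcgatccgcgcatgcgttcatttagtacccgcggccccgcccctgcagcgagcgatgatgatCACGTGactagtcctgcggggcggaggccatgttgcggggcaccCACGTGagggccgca

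Both strands were searched for 4 motifs spelled CACGTG (the E-box), TGACGT (the CREB/ATF core), GTAAACA (a FOXO site) and GGGCGG (an SP1 site), and for the p53 half-site. The Bax window held CACGTG at 9 bases before and 35 bases after the start, a p53 half-site upstream of both and 3 copies of GGGCGG. The Bcl2 window held TGACGT at 107 bases before the start and 7 copies of GGGCGG. No match overlapped another motif in either window. Of 15 promoters listed for 9 of the genes (none for Pmaip1), CACGTG was in 2 (Bax and Bbc3), GTAAACA in 2 (Bbc3 and Bcl2l11), TGACGT in 1, the p53 half-site in 1 and GGGCGG in 10. Of all 32851 mouse promoters of the same length, 7.15% held CACGTG, 7.51% TGACGT, 3.65% GTAAACA, 8.36% the p53 half-site and 35.66% GGGCGG. A match is a description of the letters and not evidence of binding.

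The genes whose pattern over the 12 GMP libraries lay closest to each called gene were found by the root mean square difference of log2 values, after removing each gene's mean, among 9942 genes. For Bcl2 they were St8sia4 (0.19) and Cers6 (0.20), for Bax Cyb5 (0.14) and Lpcat3 (0.15), and for Mcl1 Eif4g3 (0.12) and Rrbp1 (0.15). Cers6, a ceramide synthase, averaged 346.6 in Raptor KO, 211.9 in Raptor fl/fl, 79.9 in Tsc2 KO and 201.6 in Tsc2 fl/fl. That is the order of Bcl2 over the same groups except that the fl/fl groups change places.

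The rest of the death pathway was read from 6 lists of 76 genes around the family, of which 69 were tested in GMPs. In Tsc2 KO 6 rose and 3 fell, close to the 12.4% of all genes tested that passed. The apoptosome and caspase list had 1 of 11 higher and none lower. It was Aifm1, a mitochondrial flavoprotein gene, which averaged 290.5 ± 23.8 in Tsc2 KO, against 200.4 ± 44.6 in Tsc2 fl/fl (SD, n = 3 each), with a log2 fold change of 0.55 (limma adjusted p = 0.0473).

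Of 16 genes of the p53 axis 3 passed in Tsc2 KO, all higher. They were the cyclin G gene Ccng1 (448 ± 75.7, against 263 ± 31.1 in Tsc2 fl/fl, limma adjusted p = 0.00566), the RNA-binding protein gene Zmat3 (40.6 ± 16.9, against 9.18 ± 7.72, adjusted p = 0.018) and Sesn2, a stress gene that restrains mTORC1 (65.5 ± 16.6, against 14.1 ± 8.19, adjusted p = 0.0189; SD, n = 3 each). Of 16 genes that regulate BH3-only proteins, Ddit3, which encodes the stress factor CHOP, and Vdac2, a mitochondrial channel that BAK1 binds, rose by 0.92 and 0.45 on the log2 scale (limma adjusted p = 0.0154 and 0.0217). Birc3, an inhibitor of apoptosis, had a log2 fold change of -1.39 and Tnfrsf1a, the TNF receptor, one of -1.79 (adjusted p = 0.0104 and 0.0151). Bmf, a further BH3-only gene, also passed, at 0 to 0.663 in Tsc2 KO, which is at most 1 fragment per library, against 2.82 to 10.2 in Tsc2 fl/fl. Ccng1 kept its call in all 14 alternatives, and the other 8 genes in 7 to 11.

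In Raptor KO 4 of the 69 passed, all lower, against 3.94% of all genes tested that passed and 2.42% that passed as lower. They were 1 of 10 other family genes, 1 of 11 apoptosome and caspase genes, 1 of 16 p53-axis genes and 1 of 16 BH3 regulators. Sesn1, the p53-induced sestrin, averaged 57.8 ± 17.4 in Raptor KO, against 141.7 ± 11.6 in Raptor fl/fl (SD, n = 3 each), with a log2 fold change of -1.32 (limma adjusted p = 0.00238). The remaining ones by log2 fold change were Diablo, which blocks inhibitors of apoptosis (-0.53), the mitophagy receptor Bnip3l (-0.59) and the channel Vdac3 (-0.45). Of these 4, Sesn1 kept its call in all 12 alternatives and each of the others in 6.

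In differentiating Hoxb8 cells few of the genes passed for either drug. Of the 10, rapamycin changed 2, against 11.7% of the 11804 genes tested, and SL0101 changed 1, against 10.9%. Both are set against the same DMSO libraries, and the drugs were used at different doses. With 2 libraries a group, most of these calls rest on single libraries.

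Bcl2 was at 21.1 and 22.4 in rapamycin and 11.4 and 15.2 in SL0101, against 4.74 and 10.8 in DMSO. The 3 groups did not overlap, on 6 to 23 fragments per library. SL0101 replicate 1 and DMSO replicate 2 each held 13 fragments, so only the scaling separated them. The rapamycin difference was 2.76-fold (log2 fold change 1.47, SE 0.47, limma adjusted p = 0.047) and that of SL0101 did not pass (log2 fold change 0.78, 95% interval -0.20 to 1.77, adjusted p = 0.335). Without any 1 of the 4 libraries the rapamycin call was lost, at limma adjusted p = 0.0531 to 0.384.

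Bax was at 184.2 and 206.0 in rapamycin and 342.8 and 290.2 in SL0101, against 313.7 and 299.6 in DMSO. Only rapamycin stood below DMSO, by 1.57-fold (log2 fold change -0.65, SE 0.16, limma adjusted p = 0.00978), and the call was lost without DMSO replicate 1 (adjusted p = 0.126) or DMSO replicate 2 (0.084). For SL0101 the log2 fold change was 0.04 (95% interval -0.30 to 0.38). Bak1 was at 83.4 and 89.6 in rapamycin and 59.5 and 74.3 in SL0101, against 97.2 and 127.8 in DMSO. Both drugs were below DMSO, and SL0101 passed (log2 fold change -0.74, SE 0.23, limma adjusted p = 0.0427) while rapamycin did not (-0.36, adjusted p = 0.362). The SL0101 call was lost without any 1 of the 4 libraries, at limma adjusted p = 0.0595 to 0.391.

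Between the drugs, 1 of the 10 genes passed, against 8.87% of the genes tested. It was Bax, lower in rapamycin at 100 nM than in SL0101 at 10 nM (log2 fold change -0.69, limma adjusted p = 0.0103), a call lost without SL0101 replicate 1 (adjusted p = 0.174). Bcl2 (log2 difference 0.69, 95% interval -0.30 to 1.67) and Bak1 (0.37, 95% interval -0.11 to 0.85) did not differ beyond their spread, so the drugs were not shown to act differently on these. The remaining 7 genes did not pass for either drug. Mcl1 was at 191.5 and 239.6 in rapamycin and 224.8 and 182.6 in SL0101, against 277.3 and 250.6 in DMSO, below DMSO in all 4 treated libraries (limma adjusted p = 0.321 for rapamycin and 0.192 for SL0101). Bcl2l1 was at 111.8 and 141.1 in rapamycin and 159.2 and 154.6 in SL0101, against 131.2 and 126.1 in DMSO. Bbc3 was at 5.50 and 8.96 in rapamycin and 10.5 and 9.09 in SL0101, against 15.0 and 9.13 in DMSO. For Bcl2l11, Pmaip1, Bid and Bad the log2 fold changes lay between -0.33 and 0.22.

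**Figure D4:**
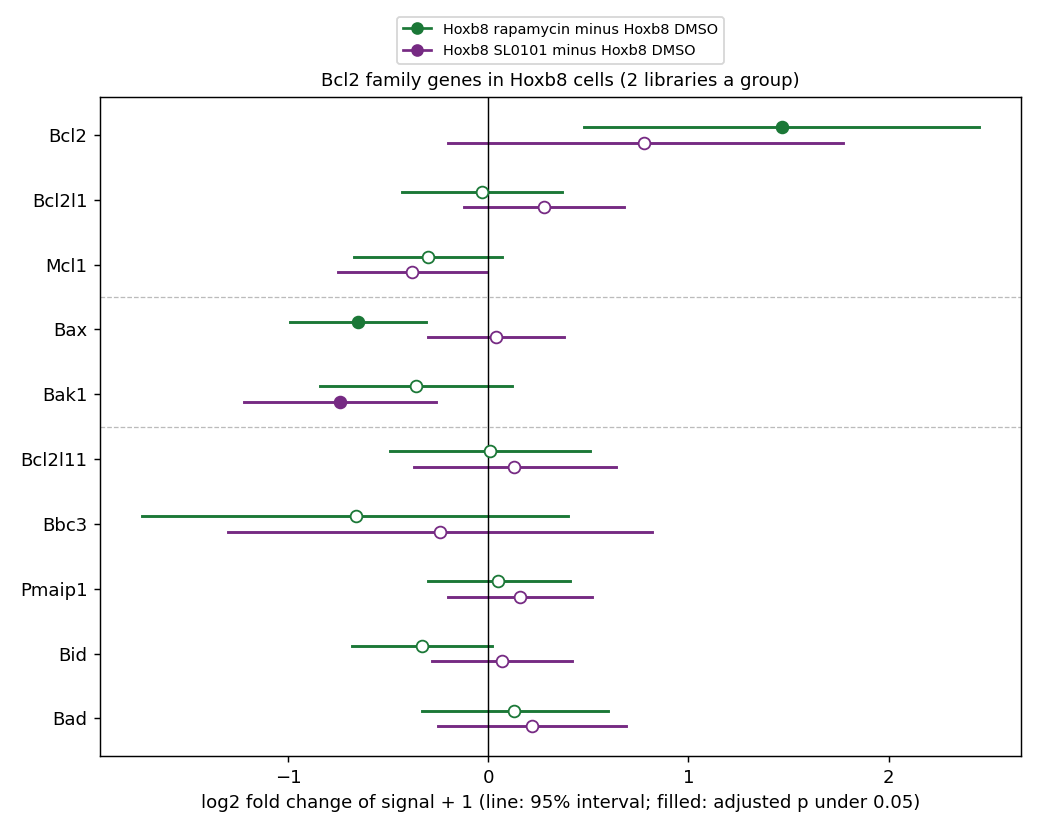
Log2 fold change of signal + 1 (horizontal axis) of each Bcl2 family gene in rapamycin minus DMSO and in SL0101 minus DMSO, in Hoxb8 cells with 2 libraries a group, with 95% intervals; filled points have limma adjusted p under 0.05. The filled points are Bcl2 (1.47) and Bax (-0.65) for rapamycin and Bak1 (-0.74) for SL0101.

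The median absolute log2 fold change of the 10 genes was 0.31 for rapamycin and 0.23 for SL0101, against 0.33 and 0.34 for all genes tested. The Bcl2 to Bax ratio was 0.109 to 0.114 in rapamycin and 0.0332 to 0.0522 in SL0101, against 0.0151 to 0.0360 in DMSO. Markers of maturation differed in the same libraries. The 9 GMP markers summed to 60168 and 59844 in rapamycin and 25751 and 33661 in SL0101, against 12142 and 13226 in DMSO, with 6 higher for rapamycin and 5 for SL0101. The 9 mature neutrophil markers summed to 49788 and 83271 in rapamycin and 46015 and 71428 in SL0101, against 99764 and 137866 in DMSO, with 3 lower for rapamycin and 6 for SL0101. Macrophage markers summed to 2391 to 2698 in rapamycin and 3270 to 3309 in SL0101, against 5117 to 5372 in DMSO, with Gpnmb, Cd68, Lgals3 and Ctsb lower for both drugs. These sums were mostly Ctsb, which averaged 2313 in rapamycin and 3131 in SL0101, against 4583 in DMSO. The macrophage genes C1qa and Mrc1 were at 0 in every Hoxb8 library. Their part in the Bcl2, Bax and Bak1 values was not tested.

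Of 66 further death-pathway genes tested in Hoxb8 cells, 2 rose and 3 fell with rapamycin, a smaller share than the 11.7% of all genes tested. With SL0101 4 of the 66 passed, against 10.9%, and between the drugs 4, against 8.87%. Perp, a p53-induced membrane protein gene, was at 47.7 to 61.6 in rapamycin, against 10.3 to 14.1 in DMSO (log2 fold change 2.08, limma adjusted p = 0.00144), and it kept this call in all 10 alternatives. Trp53 itself was at 509.5 to 666 in rapamycin, against 265.5 to 418 in DMSO (log2 fold change 0.80, adjusted p = 0.00515). The death receptor gene Fas (-0.93), the p53-binding Gtse1 (-0.70) and the stress protein gene Trp53inp1 (-0.61) were lower, and Trp53 and these 3 kept their calls in 6 to 8 of the 10. With SL0101 1 rose, the stress transcription factor Atf4 (log2 fold change 0.66, limma adjusted p = 0.00606). Another 3 fell, Trp53inp1 (-0.90) and the inhibitor-of-apoptosis genes Birc6 (-0.53) and Naip6 (-1.42). These 4 kept their calls in 5 to 8 of the 10. Naip6 has near-identical copies, and whether reads were shared between them was not tested. Between the drugs 4 passed, all higher in rapamycin, namely Bnip3l (0.49), Birc6 (0.67), Naip2 (0.58, also one of several similar copies) and Perp (2.43). Of these Perp kept its call in all 10 alternatives.

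Levels were also set side by side between the cell line and the sorted progenitors. Differentiating Hoxb8 cells in DMSO, set against the 6 fl/fl GMP libraries, differed in 6 of the 10 genes, against 52.1% of the 13740 genes tested, so the family's count lay near that of all genes. The median absolute log2 fold change was 0.83 for the 10 genes and 0.81 for all genes tested. Cell source, culture and differentiation cannot be told apart in this comparison. Y-linked transcripts differed as well, at 523.8 and 556.9 in Hoxb8 DMSO. In fl/fl GMPs they were at 384.9 in Tsc2 fl/fl replicate 2 and at 0.8 or less in the others. The part of sex was not tested.

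Bcl2 was at 4.74 and 10.8 in Hoxb8 DMSO and between 88.0 and 151.7 in fl/fl GMPs, 14.8-fold lower in the line (log2 fold change -3.89, limma adjusted p = 1.4e-09). The survival gene Bcl2l1 had the opposite pattern, at 131.2 and 126.1 in Hoxb8 DMSO, against 36.7 to 58.1 in fl/fl GMPs (log2 fold change 1.42, adjusted p = 2.7e-05). Mcl1 was at 277.3 and 250.6 in Hoxb8 DMSO, inside the 225.0 to 398.0 of fl/fl GMPs. Bax (0.89, adjusted p = 5.6e-05) and Bak1 (0.78, 0.00509) were higher in the line by log2 fold change, and so were Bcl2l11 (1.58, 3.9e-04) and Pmaip1 (1.67, 2.3e-05), all from limma. The Bak1 call was lost without Hoxb8 DMSO replicate 2 (limma adjusted p = 0.13). Pmaip1 was at 278.9 and 234.9 in Hoxb8 DMSO, against 61.3 to 112.9 in fl/fl GMPs, so the groups were far apart. Bbc3, Bid and Bad did not pass. Per kb, Bcl2 was the lowest of the 10 in each Hoxb8 group, at 2.37 ± 0.102 in rapamycin, 1.45 ± 0.292 in SL0101 and 0.848 ± 0.467 in DMSO (SD, n = 2 each).

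Over the 7 groups, the order of mean Bcl2 levels was Raptor KO, Tsc2 fl/fl, Raptor fl/fl, Tsc2 KO, rapamycin, SL0101 and DMSO. The fl/fl groups were the only neighbours that overlapped. Among the Hoxb8 groups this order rested on 6 to 23 fragments per library, and SL0101 passed against neither DMSO nor rapamycin. The order of Bax began with SL0101, DMSO and Tsc2 KO, which overlapped, followed by rapamycin, Raptor fl/fl and Tsc2 fl/fl, which overlapped as neighbours, and ended with Raptor KO below all others. For Bid and Bad nearly all neighbours overlapped, the exception being Bid between Raptor KO (206.9 ± 10.6) and rapamycin (173.2 ± 16.9). Bcl2l1 and Pmaip1 split by cell system, with the lowest Hoxb8 library above the highest GMP library for both genes (111.8 against 63.2 for Bcl2l1, and 234.9 against 172.4 for Pmaip1). Over the GMP libraries Bid varied least, its highest library being 1.68 times its lowest, followed by Mcl1 (1.92) and Bad (1.93), whereas that ratio was 9.64 for Bcl2 and 28.6 for Bbc3, which had as few as 2 fragments.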

How the data were processed

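RNA-seq was read from 1 table of 22787 genes in 18 libraries. Per the submitters' processing notes, the tools were Cuffnorm, Cufflinks 2.2.1, TopHat2 2.0.10 and BWA; no genome build is given in the sources used here. As deposited, the signal is the authors' normalized fragments per gene: 98.9 to 99.0% of values were whole multiples of a library's smallest step (tolerance 0.01), which gave the fragment totals. From there, log2(value + 1) was tested with limma 3.58.1 in R 4.3.3 (trended, robust variance), so fold changes of low genes are understated. The 12 GMP libraries, the 6 Hoxb8 libraries and, for Hoxb8 DMSO minus fl/fl GMPs, all 18 were fitted together. Genes were tested at a value of at least 1 in 3 libraries (2 in the Hoxb8 fit). P-values were two-sided and Benjamini-Hochberg adjusted over all genes tested, with a threshold of 0.05. Intervals are 95%. Few fragments limit Bbc3, and Bcl2 in Hoxb8 cells, most. Exon lengths came from GENCODE M21 and promoters from RefSeq (GRCm38.p6), joined by symbol. The procedure was tested on simulated data in which every gene had the same spread and no library stood apart, unlike these data.

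Members, gene lists, markers and motifs were chosen with earlier results of these data known. All 10 members are named. From each death-pathway list, up to 4 genes per comparison that passed are named, smallest adjusted p first; genes not reported here were taken out of the lists and their counts. For each called member, the 2 genes most alike are named. Alternatives were a pseudocount of 0.25, no filter, quantile normalization, fits of the groups compared alone, the replicate number as a block, leaving out each library and leaving out both Tsc2 replicate 2 libraries. Voom weights on recovered fragments, and leaving out the 2 libraries that stood apart, were chosen after seeing the data. Each library was counted as a sample. Replicates of a group differed beyond counting noise, which does not show whether they were separate mice or cultures.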

Additional observations from a re-analysis of the deposited data

Results flagged for a closer look

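The effects of the Raptor and Tsc2 deletions differed for 12 of the genes named, by limma's test of the difference itself (Raptor effect minus Tsc2 effect, log2). They were 2 of the 10 family genes and, of 69 death-pathway genes tested, 2 with a positive and 8 with a negative difference. Of all 13237 genes tested 12.4% passed, so these counts lay near that share. In the family the genes were Bcl2 at 2.46 and Bax at -1.39. Among apoptosome genes, Diablo was at -0.90. Among death-receptor genes, Tnfrsf1a was at 2.00 and Cflar, which blocks caspase-8, at 0.99. On the p53 axis, Zmat3 was at -3.25, Sesn1 at -1.18, Gtse1 at -1.06 and Ccng1 at -1.03. Among genes that regulate BH3-only proteins, Ddit3 was at -1.72, Dynll1, a dynein light chain that binds BIM, at -0.83 and Vdac3 at -0.81. Bcl2, Bax, Diablo, Ccng1, Ddit3 and Vdac3 kept their calls in every alternative tried. Tnfrsf1a kept its call in 7 of 19 alternatives and Cflar in 8. Markers of several cell types, erythroid cells, macrophages and neutrophils among them, moved in the same libraries, and their part in these differences was not tested.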

How the results depend on the processing

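For the 15 fold changes of family genes that passed, 198 values were recomputed, of which 175 kept the call, 23 lost it and 0 reversed. Bcl2 and Bax in Tsc2 KO, and in the difference of effects, kept it throughout, and so did Bcl2, Bcl2l1, Bax, Bcl2l11 and Pmaip1 in Hoxb8 DMSO minus fl/fl GMPs. Mcl1 in Tsc2 KO also lost its call with no filter (adjusted p = 0.0661) and with the Tsc2 groups alone (0.0836). Bcl2 with rapamycin lost it with a pseudocount of 0.25 (0.0547), quantile normalization (0.055), the compared groups alone (0.0597) and voom weights (0.0515), which left 1 member each time. Bak1 with SL0101 lost it under quantile normalization (0.0539), leaving 0. For Raptor the compared groups alone gave 2 members and 1249 genes, against 522 in the fit of all GMP groups. For Tsc2 they gave 471 genes against 1638, and for rapamycin minus SL0101 542 against 1047. Without the 2 libraries that stood apart, 3183 genes passed for Tsc2 and 3088 for the difference of effects (1646 with all libraries), with 4 and 5 members. Fewer samples entered each of these fits, yet the number of genes passing rose in some and fell in others. The cause was not tested.

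Leaving out 1 library gave 146 to 402 genes for Raptor, 601 to 2498 for Tsc2, 897 to 2519 for the difference of effects, 540 to 1164 for rapamycin, 323 to 868 for SL0101 and 128 to 863 for rapamycin minus SL0101. Members passing then numbered 2 to 4 for the difference of effects, 0 to 1 for rapamycin, 0 to 0 for SL0101 and 0 to 1 for rapamycin minus SL0101. Without Tsc2 KO replicate 1, 2498 genes passed for Tsc2. Where a Hoxb8 group was left with 1 library, that library was assumed to vary like the others.

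Deviations of same-numbered libraries correlated at 0.017 to 0.053 in the Raptor groups. In the Tsc2 groups they correlated at 0.329 for replicate 1, 0.433 for replicate 2 and -0.037 for replicate 3. Whether same-numbered libraries were paired was not tested. With a replicate block, 1691 genes passed for rapamycin minus SL0101 against 1047, Mcl1 joined Bcl2 and Bax in the difference of effects, and no other member call changed. The planned count test was not run, since some values did not come out as whole fragments. Depth limits low genes: Bbc3 had 2 to 61 fragments in GMPs and Bcl2 6 to 23 in Hoxb8 cells.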

Other observations

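Of 71 death-pathway genes outside the 10, 23 were higher and 20 lower in Hoxb8 DMSO than in fl/fl GMPs. Inhibitors of apoptosis were higher in 5 of 7, Birc3 averaging 202 ± 23.1 in Hoxb8 DMSO and 52.3 ± 13.8 in fl/fl GMPs and Xiap 183.9 ± 5.25 and 84.8 ± 23.0 (SD, n = 2 and n = 6). Apoptosome and caspase genes were higher in 2 of 11 and lower in 5. Apaf1, the scaffold of the apoptosome, averaged 240.9 ± 16.8 in Hoxb8 DMSO and 88.0 ± 9.25 in fl/fl GMPs, whereas Cycs, which encodes cytochrome c, averaged 301.7 ± 32.2 in Hoxb8 DMSO and 836 ± 88.3 in fl/fl GMPs. Of 16 genes that regulate BH3-only proteins 2 were higher and 8 lower, among them Atf4 (329 ± 28.6 in Hoxb8 DMSO and 924 ± 211 in fl/fl GMPs). Of 16 p53-axis genes 6 were higher and 5 lower. The death receptor gene Fas was at 107.5 to 135.3 in Hoxb8 DMSO and 0 to 6.07 in fl/fl GMPs. Of all genes tested in this comparison 22.6% passed as higher and 29.5% as lower, 52.1% in either direction, and these counts are read against those shares.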
